A study of Danio rerio with 6 samples.

Results

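The neural crest and pigment cell genes described here are *crestin*, *sox10*, *mitfa*, *kita*, *dct*, *tyr*, *tyrp1b*, *pmela* and *gpnmb*. They were chosen by gene symbol as crest markers, melanocyte factors and melanin genes, and all 9 were found among the 36155 genes of the count files. RNA was taken from embryos at 36 hours post fertilization (hpf), with the heads cut off for genotyping, and the remaining tails of one genotype were pooled. The 3 *prpf31*-/- libraries came from homozygous knockout embryos of a CRISPR/Cas9 frameshift line, and the 3 sibling libraries came from *prpf31*+/+ embryos. All embryos were of strain AB* and were bred from *prpf31*+/- parents, and no transgene or drug is given for either group. Prpf31 is a protein of the spliceosome, needed for assembly of the U4/U6.U5 particle.

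The neural crest is a transient cell population that leaves the dorsal neural tube and forms pigment cells, peripheral neurons and glia. In zebrafish, Sox10 acts in crest progenitors and switches on *mitfa*, whose product commits cells to the black melanophore lineage. Mitfa then activates genes of the melanosome, among them those of the enzymes that turn tyrosine into melanin. In the tail at this stage, melanophores are migrating and darkening. Each tail library averages over many tissues, so fewer cells of a type and less RNA per cell cannot be told apart in these values.

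Libraries held between 21809870 and 23789933 counts. Levels are given as CPM, counts relative to library size scaled by edgeR's TMM factors, and changes as the log2 ratio of *prpf31*-/- over sibling tails with its standard error (SE). The targeted gene was lower in the knockouts, with *prpf31* at 23.4, 25.2 and 23.0 CPM in *prpf31*-/- tails against 36.8, 38.2 and 38.4 CPM in sibling tails (log2 fold change −0.66, SE 0.0842, adjusted p = 0.00104 by the quasi-likelihood test of edgeR). Most markers of trunk tissues were present in every library, such as *actc1b* of muscle at 21398 to 28359 CPM, *cyt1* of skin at 3334 to 4374 CPM and *kdrl* of vessels at 45.2 to 52.4 CPM, while *mylpfa* of muscle (0.449 to 3.15 CPM) and *krt5* of skin (0.225 to 3.32 CPM) were near the floor and *mnx1* of motor neurons had 0 counts. Some markers ranged more widely over the 6 libraries, such as *tubb5* of the spinal cord (222 to 464 CPM) and *krt4* of skin (4606 to 8338 CPM). Whether replicate libraries stem from different clutches is not given in the labels, and each p-value therefore covers the spread among these 6 libraries only.

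Of the 9 genes, 3 fell in *prpf31*-/- tails (*gpnmb*, *dct* and *crestin*), 1 rose (*mitfa*), and 5 did not pass the test (*sox10*, *kita*, *tyr*, *tyrp1b* and *pmela*), at an adjusted p under 0.05 over all 21876 genes tested. For comparison, 10.1% of all tested genes passed, 5.58% as higher and 4.49% as lower. The median log2 fold change was 0.01 for the 9 genes and −0.00 for all tested genes. The groups did not overlap for 6 of the 9 genes, against 30.6% of all tested genes. None of the 9 genes lies on chromosome 16, where *prpf31* is. The *gpnmb* and *dct* calls held in all 15 alternative settings and left-out libraries, whereas the *crestin* and *mitfa* calls did not.

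**Figure D1:**
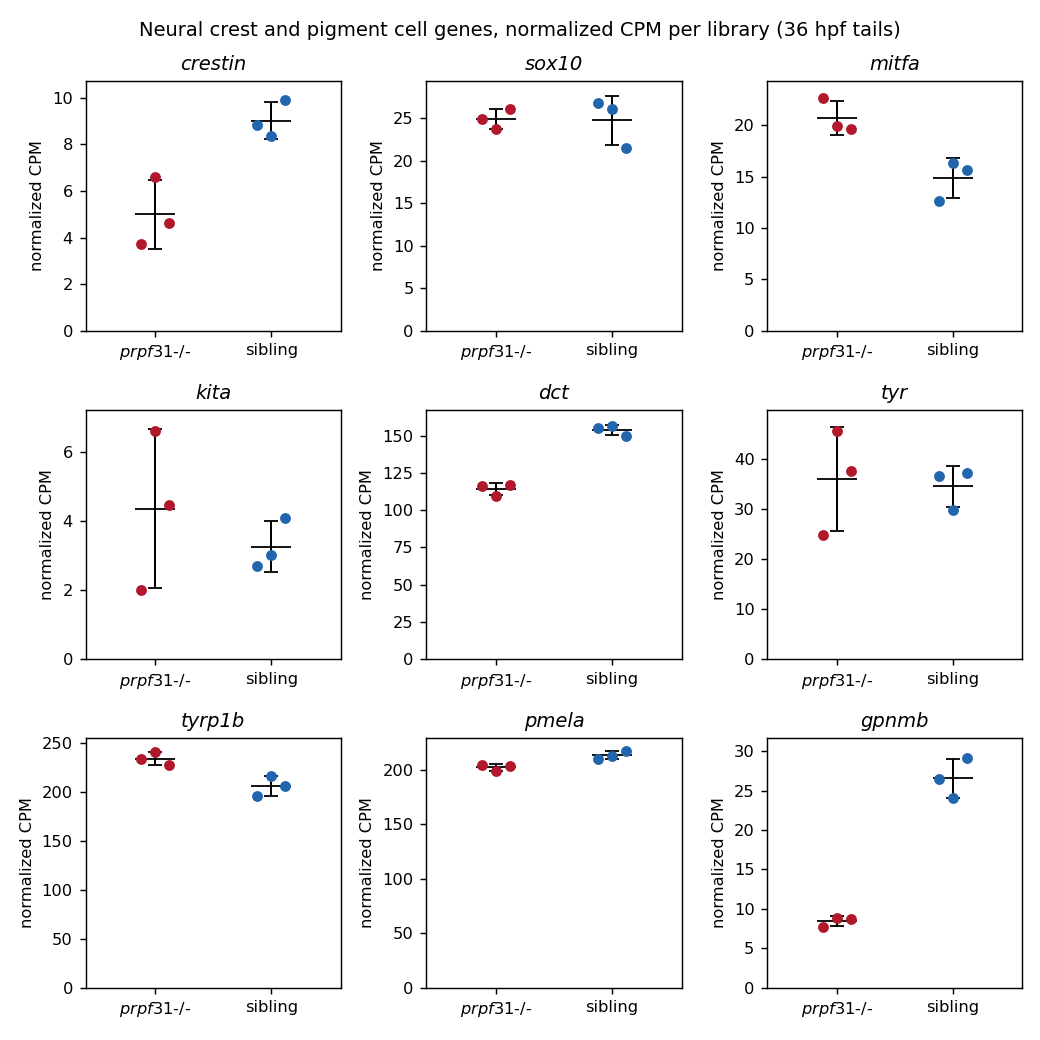
Normalized counts relative to library size (CPM, y axes from 0) of the 9 neural crest and pigment cell genes in each library. Points are libraries, horizontal bars are means and whiskers are SD (n = 3 per group). *gpnmb* lies between 7.68 and 8.89 CPM in *prpf31*-/- tails and between 24.1 and 29.1 CPM in sibling tails, whereas *sox10*, *kita* and *tyr* overlap between groups.

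Among the crest genes, *crestin* fell and *sox10* did not change detectably. *crestin* (ENSDARG00000105570, chromosome 4, 47257854 to 47262290, plus strand, GRCz11) gives a transcript used as a marker of premigratory and migrating crest cells in zebrafish. It had 3.74, 6.62 and 4.64 CPM in *prpf31*-/- tails, against 8.81, 8.36 and 9.89 CPM in sibling tails. Every knockout library was below every sibling library. For *crestin* the log2 ratio was −0.85 (SE 0.212, adjusted p = 0.0331 by edgeR), 0.555 times the sibling level. The call was lost without sibling replicate 1 (adjusted p = 0.0987 by edgeR), sibling replicate 2 (0.0715), sibling replicate 3 (0.106), knockout replicate 1 (0.0547) or knockout replicate 3 (0.130), and the direction stayed. The annotated length of *crestin* equals its whole span, 4437 nt, so no intron is annotated. Sequence related to *crestin* occurs at several places in the zebrafish genome, so its counts depend on how the counting treated reads with several matches and are uncertain.

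*sox10* (ENSDARG00000077467, chromosome 3, 1492174 to 1501255, plus strand), the crest transcription factor gene that is also active in glia and the ear, had 25.0, 23.7 and 26.1 CPM in *prpf31*-/- tails, against 26.8, 26.1 and 21.4 CPM in sibling tails. The groups overlapped, and sibling replicate 3 was the lowest of the 6 libraries. On the log2 scale the difference was 0.01 with a 95% interval of −0.23 to 0.25 (adjusted p = 0.975 by edgeR), and it was −0.03 with upper-quartile scaling. The ratio of *crestin* to *sox10* counts, in which library size cancels, was 0.150, 0.279 and 0.178 in *prpf31*-/- tails against 0.329, 0.321 and 0.461 in sibling tails.

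Of the melanophore regulators, *mitfa* rose and *kita* did not pass the test. *mitfa* (ENSDARG00000003732, chromosome 6, 43390387 to 43433277, plus strand) had 22.6, 19.9 and 19.7 CPM in *prpf31*-/- tails, against 12.7, 16.3 and 15.6 CPM in sibling tails. All knockout libraries were above all sibling libraries. The log2 ratio was 0.48 (SE 0.125, adjusted p = 0.0391 by edgeR), a level 1.39-fold higher. This call was lost whichever library was left out, with adjusted p from 0.0560 without knockout replicate 2 to 0.138 without sibling replicate 1 (edgeR). It also missed the threshold with upper-quartile scaling (adjusted p = 0.0509 by edgeR), where the log2 fold change was 0.44.

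*kita* (ENSDARG00000043317, chromosome 20, 22335511 to 22378401, minus strand) encodes the receptor tyrosine kinase needed for migration and survival of melanophores. It had 2.02, 6.62 and 4.46 CPM in *prpf31*-/- tails, against 2.71, 3.01 and 4.09 CPM in sibling tails. The knockout libraries held both the lowest and the highest value. For *kita* the log2 fold change was 0.42 with a 95% interval of −0.40 to 1.24 (adjusted p = 0.533 by edgeR), and it was −0.00 without knockout replicate 2. At 41 to 151 counts per library and with a coefficient of variation of 52.7% among knockouts, a change of this size was not detectable. *kita* is also known from blood progenitors. Against 10.1% of all tested genes, none of 9 listed genes of blood stem and progenitor cells passed the test by edgeR. Their median log2 fold change was −0.29, and 7 of the 9 were below 0, against 50.7% of all tested genes. Those above 0 were *myb* (0.22) and *gfi1aa* (0.32). The summed level of the 9 genes was 166 to 170 CPM in *prpf31*-/- tails and 188 to 228 CPM in sibling tails, without overlap. Most of this sum was 1 gene, *meis1b*, at 130, 135 and 137 CPM in *prpf31*-/- tails against 189, 155 and 148 CPM in sibling tails. *runx1* had at most 1.03 CPM in any library. The part of blood stem and progenitor cells in the *kita* level was not tested.

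The melanin enzyme genes differed from each other. Tyrosinase, encoded by *tyr*, carries out the first step of melanin synthesis. Dopachrome tautomerase, encoded by *dct*, converts the intermediate dopachrome, and Tyrp1 proteins are related enzymes of the melanosome membrane. *dct* (ENSDARG00000006008, chromosome 9, 53327332 to 53352682, plus strand) had 116, 109 and 117 CPM in *prpf31*-/- tails, against 155, 156 and 150 CPM in sibling tails. The libraries of each group lay close together and far from those of the other group. On the log2 scale the change was −0.43 (SE 0.0683, adjusted p = 0.00383 by edgeR), 1.35-fold lower.

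*tyrp1b* (ENSDARG00000056151, chromosome 1, 19332837 to 19346048, plus strand) had 234, 240 and 227 CPM in *prpf31*-/- tails, against 196, 216 and 206 CPM in sibling tails. Each knockout library was above each sibling library, but the difference did not pass the test (log2 fold change 0.18, SE 0.0705, 95% interval 0.03 to 0.34, unadjusted p = 0.0262, adjusted p = 0.136 by edgeR). *tyr* (ENSDARG00000039077, chromosome 15, 43799258 to 43818697, plus strand) had 24.9, 45.6 and 37.7 CPM in *prpf31*-/- tails, against 36.6, 29.9 and 37.2 CPM in sibling tails. The groups overlapped fully, and knockout replicate 1 was the lowest of all. The log2 fold change of *tyr* was 0.06 with a 95% interval of −0.35 to 0.48 (adjusted p = 0.877 by edgeR).

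The summed level of the 3 enzyme genes hid these differences, since it was 375, 395 and 381 CPM in *prpf31*-/- tails and 387, 402 and 392 CPM in sibling tails. Within each library, the ratio of *dct* to *tyrp1b* counts was 0.497, 0.454 and 0.514 in *prpf31*-/- tails, against 0.792, 0.724 and 0.727 in sibling tails. Its mean was 0.488 ± 0.0306 in *prpf31*-/- tails and 0.748 ± 0.0382 in sibling tails (SD, n = 3 each). Library size and the scaling factors cancel in this ratio, so the unequal change of *dct* and *tyrp1b* does not rest on the scaling. This ratio and the other count ratios given here were chosen after the values were seen and are given without a test. The paralog *tyrp1a* had the opposite sign to *tyrp1b*, with 110, 104 and 115 CPM in *prpf31*-/- tails against 140, 127 and 122 CPM in sibling tails (log2 fold change −0.24, adjusted p = 0.0866 by edgeR), so it did not pass either, although it passed with upper-quartile scaling (adjusted p = 0.0419 by edgeR).

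The glycoprotein genes showed the steepest fall and one of the flattest profiles. *gpnmb* (ENSDARG00000062688, chromosome 19, 20247435 to 20270207, minus strand) encodes a transmembrane glycoprotein of melanosomes and lysosomes, and is known from pigment cells and macrophages. It had 156, 203 and 204 counts in *prpf31*-/- tails, against 607, 536 and 647 counts in sibling tails. In CPM these were 7.68, 8.89 and 8.76 in *prpf31*-/- tails and 26.5, 24.1 and 29.1 in sibling tails. No knockout library came near a sibling library. The log2 ratio was −1.65 (SE 0.119, adjusted p = 2.04e-05 by edgeR), 3.14-fold lower. Among the 983 genes that fell, *gpnmb* had the 12th smallest p-value and the 73rd largest fold change.

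*pmela* (ENSDARG00000091298, chromosome 11, 3254252 to 3272020, plus strand) encodes the protein that builds the fibrils on which melanin is laid down, and is related to *gpnmb*. It had 204, 198 and 203 CPM in *prpf31*-/- tails, against 210, 213 and 217 CPM in sibling tails. The groups did not overlap but lay close together, and the log2 fold change of −0.08 (95% interval −0.22 to 0.07) did not pass the test (adjusted p = 0.510 by edgeR). The annotated start of *pmela* overlaps *timeless*, on the same strand from 3211826 to 3258701, and how reads in the shared stretch were counted is not given in the sources used here. The other 8 genes overlap no annotated gene. The ratio of *gpnmb* to *pmela* counts was 0.0376, 0.0448 and 0.0430 in *prpf31*-/- tails, against 0.126, 0.113 and 0.134 in sibling tails.

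**Figure D2:**
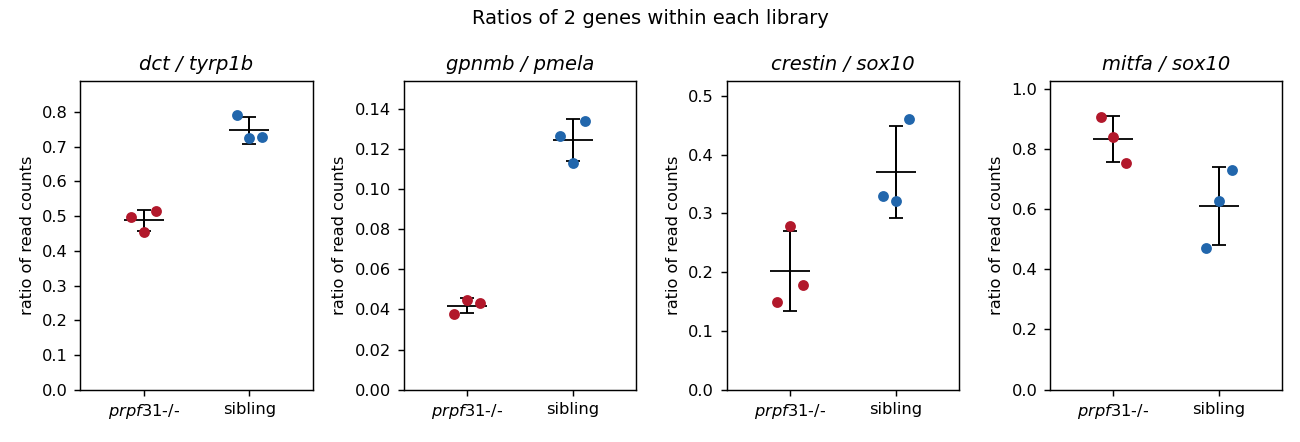
Ratios of the read counts of 2 genes within each library (y axes from 0), with *prpf31*-/- tails left of sibling tails. Points are libraries, horizontal bars are means and whiskers are SD (n = 3 per group). The ratio of *dct* to *tyrp1b* lies between 0.454 and 0.514 in *prpf31*-/- tails and between 0.724 and 0.792 in sibling tails. Those of *gpnmb* to *pmela*, *crestin* to *sox10* and *mitfa* to *sox10* also do not overlap, the last narrowly (0.755 to 0.907 against 0.472 to 0.730). Not all ratios computed are shown. That of *tyr* to *tyrp1b* overlapped, at 0.107 to 0.190 in *prpf31*-/- tails and 0.139 to 0.187 in sibling tails.

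As macrophages can express *gpnmb*, 10 macrophage genes were examined. None of the 6 that could be tested passed by edgeR, where 10.1% of all tested genes passed. Of the 6, 5 had log2 fold changes below 0, with a median of −0.26. The 2 smallest p-values were those of *lcp1* and *mfap4*. *lcp1*, an actin-bundling gene of leukocytes, had 21.8, 21.5 and 21.8 CPM in *prpf31*-/- tails against 29.1, 23.3 and 25.3 CPM in sibling tails (log2 fold change −0.26, adjusted p = 0.155 by edgeR). *mfap4* had 4.23, 3.33 and 4.33 CPM in *prpf31*-/- tails against 5.72, 5.39 and 4.99 CPM in sibling tails (−0.44, adjusted p = 0.174 by edgeR). Neither overlapped between groups, and neither did the scavenger receptor gene *marco*, at 2.99 ± 0.213 CPM in *prpf31*-/- tails and 3.92 ± 0.735 CPM in sibling tails (SD, n = 3 each). Over all tested genes, 30.6% did not overlap and 50.7% were below 0. The gene above 0 was *spi1b* (log2 fold change 0.09, adjusted p = 0.789 by edgeR). The defining marker *mpeg1.1* was near the floor and overlapped, with 8 to 22 counts per library, and *slc7a7* had 0 counts in all. The summed level of the list was 34.6 to 38.6 CPM in *prpf31*-/- tails and 38.2 to 46.6 CPM in sibling tails. Without *cd74a*, which had 65 counts in knockout replicate 1 and at most 10 elsewhere, a choice made after seeing the values, it was 34.4 to 35.4 CPM in *prpf31*-/- tails and 38.2 to 46.2 CPM in sibling tails, without overlap. Most of these sums was *lcp1*. The part of macrophages in the *gpnmb* level was not tested.

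Levels of different genes were compared per length, using FPKM (fragments scaled to gene length and library total). In *prpf31*-/- tails *tyrp1b* was highest at 118 ± 3.52 FPKM, followed by *pmela* at 58.5 ± 0.899, *dct* at 52.0 ± 1.86, *tyr* at 18.4 ± 5.31, *mitfa* at 9.04 ± 0.743 and *sox10* at 7.73 ± 0.355 FPKM (SD, n = 3 each), with no overlap between neighbours. Below them *gpnmb* at 1.18 to 1.37, *kita* at 0.565 to 1.85 and *crestin* at 0.840 to 1.48 FPKM overlapped one another. In sibling tails *tyrp1b* was also highest at 104 ± 5.46 FPKM, followed by *dct* at 69.9 ± 1.82, *pmela* at 61.6 ± 1.11, *tyr* at 17.6 ± 1.99, *sox10* at 7.66 ± 0.908, *mitfa* at 6.46 ± 0.868, *gpnmb* at 4.06 ± 0.368, *crestin* at 2.02 ± 0.169 and *kita* at 0.911 ± 0.201 FPKM (SD, n = 3 each). There the neighbours *sox10* and *mitfa* overlapped and the other neighbours did not. The order of *dct* and *pmela* was the same in all 3 libraries of each group and opposite between groups.

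**Figure D3:**
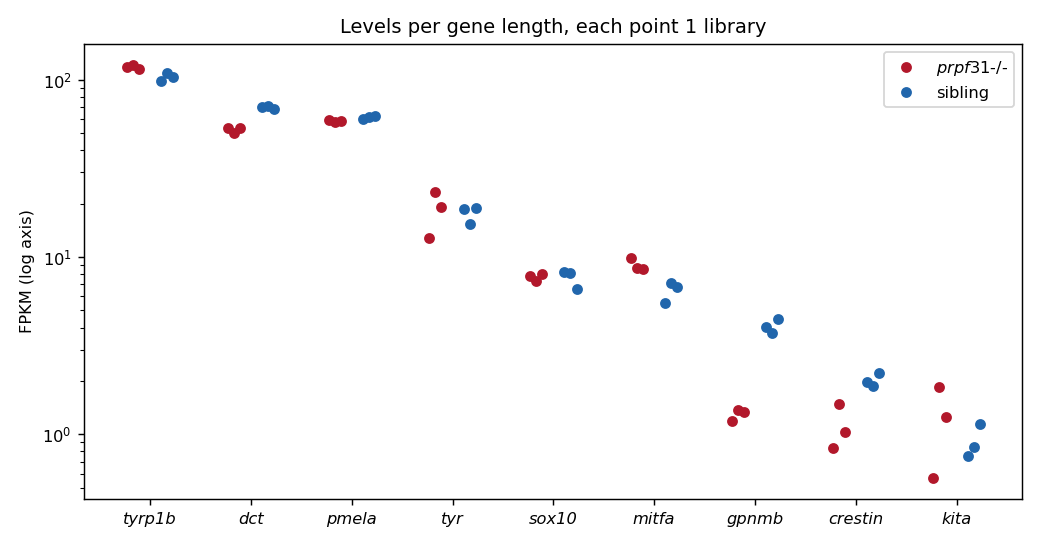
FPKM per library on a log axis, with genes ordered from left to right by their mean in sibling tails. In each gene the *prpf31*-/- libraries stand left of the sibling libraries. The levels run from 121 FPKM for *tyrp1b* to 0.565 FPKM for *kita*, and *gpnmb* lies at 1.18 to 1.37 FPKM in *prpf31*-/- tails and at 3.71 to 4.44 FPKM in sibling tails.

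The knockout libraries were uneven for some genes. The coefficient of variation of *tyr* was 28.9% among *prpf31*-/- libraries, where counting alone would give 3.52%, and 11.8% among sibling libraries. For *crestin* it was 29.4% among *prpf31*-/- libraries and 8.74% among sibling libraries. Knockout replicate 1 had the lowest *crestin*, *kita*, *tyr* and *gpnmb* of the 3 knockouts and the highest *mitfa*. Without it, the log2 fold changes of *kita* and *tyr* were 0.75 (adjusted p = 0.101 by edgeR) and 0.26 (adjusted p = 0.217 by edgeR). This library also had the highest level of the lens crystallin gene *crybb1*, at 32.0 CPM. The share of mitochondrial counts moved with genotype, at 5.62%, 4.78% and 5.13% in *prpf31*-/- libraries against 4.19%, 4.35% and 4.27% in sibling libraries, without overlap. The part of these features in the levels of the 9 genes was not tested.

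The retinal pigment epithelium of the eye makes melanin too, and heads were removed before extraction. Of 16 listed genes of retina, lens and retinal pigment epithelium, 8 were too low to be tested. *rpe65a*, an enzyme of the retinal pigment epithelium, had 0.935, 1.01 and 1.07 CPM in *prpf31*-/- tails, against 0.785, 0.584 and 0.495 CPM in sibling tails (adjusted p = 0.250 by edgeR). The retinal gene *rx2* had 0 counts in every knockout library and at most 8 in a sibling library. The summed level of the list was 8.32 to 65.0 CPM in *prpf31*-/- tails and 10.6 to 46.8 CPM in sibling tails, and its spread followed the lens crystallin genes *crybb1* and *cryba1b*, which were highest in knockout replicate 1 and sibling replicate 3. *atoh7*, a gene of retinal ganglion cell formation, fell (log2 fold change −2.26, adjusted p = 0.0301 by edgeR), with 1 to 25 counts per library. Its call was lost without any library other than knockout replicate 1 (adjusted p up to 0.102 by edgeR). The part of eye tissue in the melanin gene levels was not tested.

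Among other genes of melanophores, *ednrba* and *trpm1b* fell. Of 30 listed, 27 were in the files and 22 were tested, of which 2 fell, none rose and 20 did not pass. Over all tested genes, 10.1% passed. The median log2 fold change of the 22 was −0.20, and 16 of the 22 were below 0, against 50.7% of all tested genes. Summed over the list, the level was 328 to 331 CPM in *prpf31*-/- tails and 371 to 386 CPM in sibling tails. *tyrp1a*, which did not pass, was the largest part of this sum. It had 104 to 115 CPM in *prpf31*-/- tails and 122 to 140 CPM in sibling tails. *ednrba*, the endothelin receptor gene of pigment cell progenitors, had 0.443, 0.876 and 0.558 CPM in *prpf31*-/- tails, against 3.49, 3.77 and 4.45 CPM in sibling tails. These were 9, 20 and 13 counts in *prpf31*-/- tails and 80, 84 and 99 counts in sibling tails, with no overlap. The log2 fold change of *ednrba* was −2.62 (SE 0.300, adjusted p = 5.5e-04 by edgeR), and the call held in all 15 alternatives. *trpm1b*, a channel gene expressed in melanophores, fell to 18.4 ± 2.10 CPM in *prpf31*-/- tails, against 27.1 ± 3.54 CPM in sibling tails (SD, n = 3 each, log2 fold change −0.56, adjusted p = 0.0215 by edgeR). Its call was lost without knockout replicate 2 (adjusted p = 0.0544 by edgeR), sibling replicate 1 (0.0685) or sibling replicate 3 (0.0689).

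Among melanophore genes that did not pass, the melanosome transporter gene *slc45a2* had a log2 change of −0.35 (adjusted p = 0.102 by edgeR) and the melanosome receptor gene *gpr143* −0.49 (adjusted p = 0.107 by edgeR). The potassium-dependent sodium/calcium exchanger gene *slc24a4a* had 0.83 (adjusted p = 0.193 by edgeR), with 10 to 22 counts per library. Relatives of *mitfa*, *kita* and *ednrba* were added to the comparison after the values were seen. *mitfb*, *tfe3a*, *tfe3b*, *kitb* and the ligand gene *edn3b* were too low to be tested. *tfeb*, a lysosomal regulator of the *mitfa* family, had a log2 change of −0.03 (adjusted p = 0.910 by edgeR). The receptor genes *ednraa* and *ednrab* had −0.15 (adjusted p = 0.569 by edgeR) and −0.34 (adjusted p = 0.273 by edgeR), so neither receptor relative passed.

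**Figure D4:**
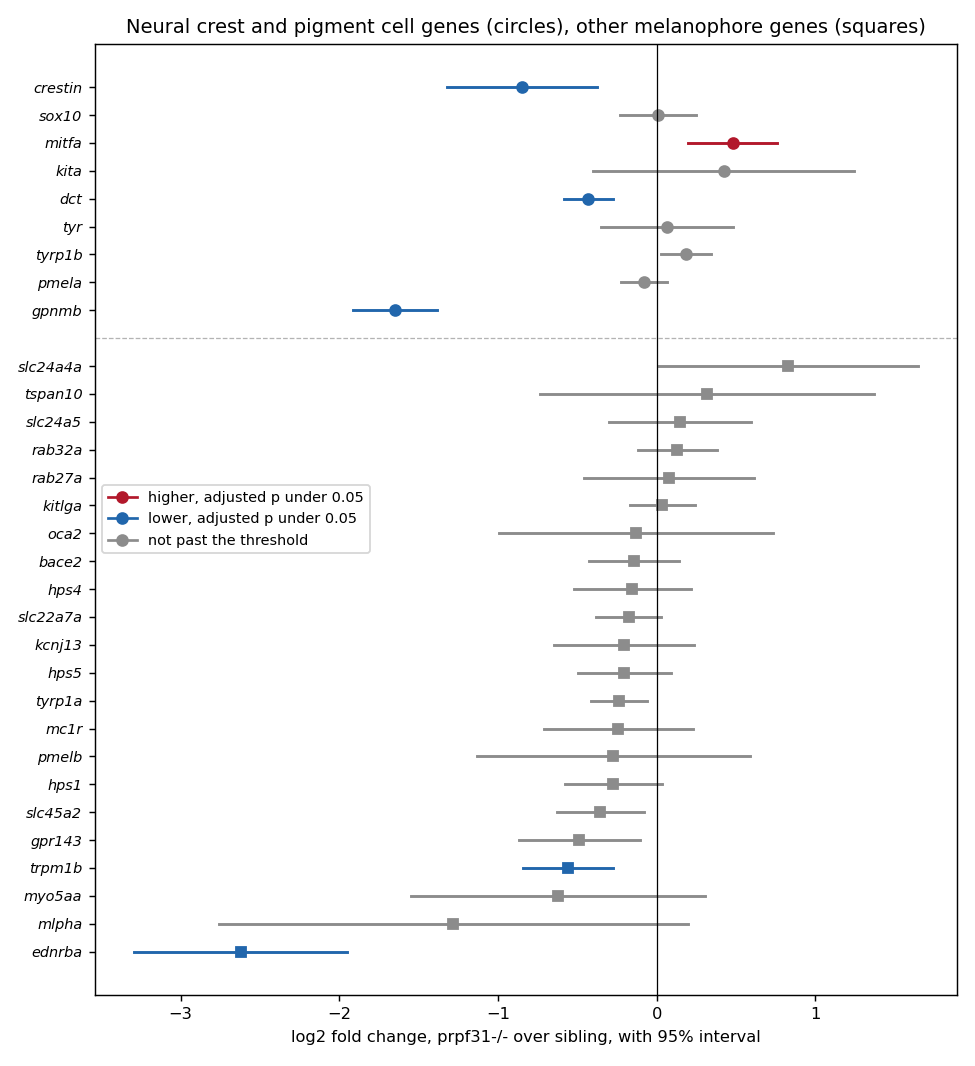
Log2 fold change of *prpf31*-/- over sibling tails (x axis) with its 95% interval for the 9 genes (circles) and the 22 other melanophore genes tested (squares, sorted by value). Red marks genes higher and blue genes lower at an adjusted p under 0.05, and grey marks genes that did not pass. *gpnmb* at −1.65 and *ednrba* at −2.62 lie farthest left of those that passed.

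Other crest regulators were mixed. Of 26 listed, 24 were tested, of which 2 rose, 1 fell and 21 did not pass, with a median log2 fold change of −0.06. Over all tested genes, 5.58% rose and 4.49% fell. *prdm1a*, a regulator of early crest whose gene lies on chromosome 16 like *prpf31*, rose to 44.4 ± 4.16 CPM in *prpf31*-/- tails, against 33.1 ± 2.01 CPM in sibling tails (SD, n = 3 each, log2 fold change 0.42, adjusted p = 0.0210 by edgeR). *snai2*, a gene of crest emigration, rose (log2 fold change 0.27, adjusted p = 0.0463 by edgeR), and *sox9b*, a crest and cartilage factor gene, fell (−0.56, adjusted p = 0.0497 by edgeR). *prdm1a* lost its call without knockout replicate 2, sibling replicate 1 or sibling replicate 3, with adjusted p up to 0.0960. *snai2* lost it without any single library, with adjusted p up to 0.179. *sox9b* lost it without knockout replicate 2 or 3 or sibling replicate 1 or 2, with adjusted p up to 0.193. Its groups overlapped, with knockout replicate 1 at 38.55 CPM and sibling replicate 3 at 38.48 CPM. *foxd3*, which acts early in the crest beside *sox10*, did not pass, at 28.7, 21.2 and 23.9 CPM in *prpf31*-/- tails against 35.4, 31.3 and 28.0 CPM in sibling tails (log2 fold change −0.36, adjusted p = 0.114 by edgeR).

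The other pigment lineages held 1 call each. Over all tested genes, 10.1% passed and 50.7% had a log2 fold change below 0. Of 12 genes of xanthophores, the yellow pigment cells, 1 fell and 11 did not pass. The median log2 fold change was −0.18, and 8 of the 12 were below 0. Their summed level, most of it *gch2*, was 946 to 1040.5 CPM in *prpf31*-/- tails and 910 to 980 CPM in sibling tails. The gene that fell was *slc2a15a*, a sugar transporter gene, at 23.9 ± 2.59 CPM in *prpf31*-/- tails and 32.5 ± 2.76 CPM in sibling tails (SD, n = 3 each, log2 fold change −0.44, adjusted p = 0.0316 by edgeR). The call was kept when knockout replicate 2 was left out and lost without any other library, with adjusted p up to 0.105. The 5 genes with the smallest p all had lower levels. Besides *slc2a15a* these were *akr1b1* (log2 fold change −0.26, adjusted p = 0.0783 by edgeR), *aox5* (−0.24, adjusted p = 0.0859), the pteridine synthesis gene *pts* (−0.35, adjusted p = 0.0998) and the carotenoid uptake gene *scarb1* (−0.32, adjusted p = 0.103). *gch2*, another pteridine synthesis gene, had the opposite sign and did not pass, at 731, 623 and 648 CPM in *prpf31*-/- tails against 560, 600 and 606 CPM in sibling tails (log2 fold change 0.18, adjusted p = 0.207 by edgeR). Of 10 tested genes of iridophores, the reflecting pigment cells, 1 rose and 9 did not pass. The median log2 fold change was −0.21, and 7 of the 10 were below 0. Their summed level went the other way, at 1033 to 1060 CPM in *prpf31*-/- tails and 884 to 924 CPM in sibling tails, without overlap. The largest parts of this sum were *paics* and *atic*, which with *gart* (log2 fold change 0.13) were the 3 genes above 0. Those below 0 included *pnp4a*, *ltk*, *tfec*, *alx4a*, *alx4b* and *alx1*. *atic* was higher without overlap but did not pass (log2 fold change 0.24, adjusted p = 0.0631 by edgeR). The gene that rose was *paics*, an enzyme of purine synthesis that all dividing cells use (log2 fold change 0.32, adjusted p = 0.0176 by edgeR). Its call was lost without knockout replicate 3 or any 1 sibling library, with adjusted p up to 0.0952 in these fits. *pnp4a*, an iridophore marker, did not pass (−0.39, adjusted p = 0.111 by edgeR), and neither did *tfec*, a relative of *mitfa* in iridophores (−0.15, adjusted p = 0.706 by edgeR).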

How the data were processed

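The authors deposited raw counts and FPKM per gene for each library. The submitters' processing notes name CASAVA 1.8, HISAT2 2.0.5, GRCz11 and featureCounts 1.5.0-p3. The annotation release and the treatment of reads with several matches are not given in the sources used here. Deposited FPKM are counts over gene length and 1 total per library, 0.935 to 1.05 times its counts.

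Counts of the 6 libraries entered edgeR 4.0.16 under R 4.3.3 (filterByExpr, TMM, quasi-likelihood test, Benjamini-Hochberg over 21876 genes). No other term entered the fit. The common biological coefficient of variation was 15.5%. The procedure was tested on simulated data. The changes simulated were larger than those of *dct*, *mitfa* and *crestin*, so that test does not bear on changes of their size. Intervals are 95% from the fit. DESeq2 1.42.0, limma 3.58.1 on log2(FPKM + 1) and log2(FPKM + 0.1), RLE and upper-quartile factors, other filters, a replicate block and leaving out each library were alternatives. The log2(FPKM + 1) scale understates changes of low genes. Figures used matplotlib 3.10.9.

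The genes and lists were chosen with earlier results of these data known. All 9 genes are named, and in each other list the genes past the threshold and otherwise up to 4 with the smallest p, not all printed. *edn3b*, *mitfb*, *tfe3a*, *tfe3b*, *kitb*, *tfeb*, *ednraa* and *ednrab*, and *foxd3*, *gch2*, *tfec* and single markers, were picked with their values known, where outside that rule. The authors' comparisons of splicing were not used. One result of the eye list is not reported here.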

Additional observations from a re-analysis of the deposited data

How the results depend on the processing

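The direction of *gpnmb*, *dct*, *crestin*, *mitfa*, *tyrp1b* and *pmela* stayed the same in all 15 alternatives, and so did that of *prpf31*, with log2 fold changes from −0.71 to −0.62. *gpnmb* ran from −1.72 to −1.14 and *dct* from −0.47 to −0.40, both past the threshold throughout. Of the 9 genes called on the other crest and pigment lists, 2 kept their call throughout (*ednrba* and *gfap*). Among these 9, *gfap*, *plp1a*, *paics* and the cartilage factor gene *sox9b* are also active outside the crest. The others need not be confined to it, and tail libraries cannot show which cells gave a change. The number of the 9 named genes called higher was 0 with upper-quartile factors, with the replicate block, with limma on log2(FPKM + 1) without a filter, and without any single library (0 to 0). With 1 library left out, 2 to 3 were lower. Of all genes, 698 were higher and 455 lower with the replicate block, and 537 were lower with limma without a filter. Leaving out 1 library gave 600 to 1215 higher and 332 to 990 lower. Of 85 genes tested on the other crest and pigment lists, 3 were higher and 6 lower, where 5.58% of all tested genes were higher and 4.49% lower. DESeq2 gave 5 higher, the block 0, and limma without a filter 1 higher and 2 lower. Leaving out 1 library gave 0 to 2 higher and 3 to 10 lower, with 3 lower without knockout replicate 3, sibling replicate 1 or sibling replicate 2 and 10 without knockout replicate 1. The same 3 libraries gave the low counts over all genes (600 and 332 without knockout replicate 3, 666 and 378 without sibling replicate 1, 705 and 416 without sibling replicate 2). The summed level of *pmela* and *gpnmb* was 0.878 times that of siblings in CPM and 0.911 times in FPKM. Signs turned for *sox10*, *tyr* and *tfeb*, which were near 0, and for *kita*, at 0.42 in the main fit. *sox10* had −0.0304 with upper-quartile factors. With 1 library left out, *sox10* ran from −0.0879 to 0.0679, *tyr* from −0.140 to 0.263 and *tfeb* from −0.0972 to 0.0318. *kita* ran from −0.0023 without knockout replicate 2 to 0.755 without knockout replicate 1. The cause was not tested.

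Same-numbered libraries did not deviate together (Pearson r over genes of −0.0735, −0.121 and −0.0414), and no library correlated best with its own number. Deviations from a mean of 3 libraries are bound to one another, so these values cannot decide whether same-numbered libraries were paired. With the replicate block, the adjusted p of edgeR was 0.0621 for *crestin* and 0.107 for *mitfa*. Low counts limit *kita*, *ednrba* and the untested genes.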

Other observations

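Of 7 tested genes of Schwann cells and other glia, 2 fell (*gfap* and *plp1a*), none rose and 5 did not pass. Over all tested genes, 4.49% fell and 50.7% were below 0. The median log2 fold change of the 7 was −0.32, and 6 of the 7 were below 0, the exception being *egr2b* (0.72, adjusted p = 0.355 by edgeR). *gfap*, an intermediate filament gene of radial glia in the spinal cord, fell to 268, 244 and 255 CPM in *prpf31*-/- tails, against 381, 369 and 357 CPM in sibling tails (log2 fold change −0.53, SE 0.0713, adjusted p = 0.00148 by the quasi-likelihood test of edgeR), and this call held in all 15 alternatives. *plp1a*, a myelin proteolipid gene, fell to 174, 145 and 171 CPM in *prpf31*-/- tails, against 231, 229 and 197 CPM in sibling tails (−0.42, adjusted p = 0.0217 by edgeR). The *plp1a* call was lost without knockout replicate 3 (adjusted p = 0.0691 by edgeR), sibling replicate 1 (0.0977) or sibling replicate 2 (0.0889). Neither gene is particular to crest-derived glia, since both are active in the central nervous system. The defining Schwann cell gene *mpz* was too low to be tested, and *mbpa* had at most 2 counts in any library.

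Neuron genes of crest origin gave no call. Of 10 tested, none passed by edgeR, against 10.1% of all tested genes. The smallest p was that of *dbh* of noradrenaline synthesis (log2 fold change −0.89, adjusted p = 0.163 by edgeR). *dbh* had only 10 to 30 counts per library. The median log2 fold change of the 10 was −0.16, and 9 of the 10 were below 0, against 50.7% of all tested genes. Their summed level was 211 to 253 CPM in *prpf31*-/- tails and 218 to 267 CPM in sibling tails. The gene above 0 was *ret*, the receptor gene of enteric neuron progenitors, which had 39.0, 37.4 and 36.6 CPM in *prpf31*-/- tails, against 35.5, 36.7 and 34.4 CPM in sibling tails, which is a log2 change of 0.08 (adjusted p = 0.573 by edgeR).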
